A study of Rattus norvegicus with 12 samples.

Results

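The probe sets described here carried no gene symbol in the platform's annotation and varied between groups of rat liver cells kept in perfluorooctanoic acid (PFOA). Rows were taken when they were no spike-in or other control, when the mean of the 3 control arrays was under 12, and when the highest of the 4 group means exceeded the lowest by 1 or more, all on the log2 scale of the deposited values. This gave 253 probe sets of the 42667 rows without a symbol and with a control mean under 12, or 0.593%. The whole table held 70580 rows, of which 44891 had no symbol and 1738 were controls. The group means themselves chose the rows, so every difference between groups given for them is a description and carries no test. A difference of 1 is a 2-fold change in signal.

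RNA came from TRL1215, a cultured line of rat liver epithelial cells, and was measured on 12 Affymetrix arrays after WT Plus labelling. The exposed groups were given PFOA, a persistent fluorinated surfactant: T10 at 10 µM, T50 at 50 µM and T100 at 100 µM. Passage-matched cultures without PFOA were the controls, and each of the 4 groups had 3 arrays. All 4 groups grew in the same serum-containing medium and were passaged weekly, and exposure lasted up to 38 weeks. Neither the week of sampling nor whether replicates came from independently kept cultures is stated, so the spread within a group covers only these samples and may be technical. All results concern 1 cell line, and the number of arrays limits the precision.

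Whole-transcript arrays carry many probe sets for transcribed stretches that have no assigned gene, among them long non-coding RNAs, pseudogenes, small structured RNAs and repeated sequence. A probe set made for a repeated sequence can collect signal from several places in the genome, and an identical probe set can stand under several names. Names such as TC0100000133.rn.1 are the array maker's transcript clusters and begin with a chromosome number. No sequence or coordinate of these rows was available for this work, so each is described by its name and values alone.

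The 12 arrays had medians over all rows between 3.73 and 3.8, which is under the background level given next. The 95th percentile over all rows averaged 10.75 in control, 10.53 at T10, 10.6 at T50 and 10.73 at T100. Its part in the differences between groups was not tested. Background was set in each group at the 95th percentile of the array's 1153 negative-control rows, a level that averaged 5.42 in control, 5.77 at T10, 5.52 at T50 and 5.65 at T100. None of the 8 hepatocyte markers with a probe set, which include albumin, had a group mean over it. Among epithelial markers Krt8 was above it (1 of 6), and among stellate cell and fibroblast markers Col1a1, Col1a2 and Vim were (3 of 6). Of the 4 endothelial markers Tek was above it, and of the 5 macrophage and leukocyte markers none was. The mean level of the stellate cell and fibroblast markers was 8.2 in control, 8.31 at T10, 8.13 at T50 and 8.75 at T100. From control to T100, Col1a1 went from 7.19 to 9.55 and Col1a2 from 10.22 to 11.47. Vim was at 19.93, the highest value of the arrays, in every group, and Des, Lrat and Pdgfrb were under background. The part of these levels in the results was not tested.

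Of the 253 probe sets, 231 (91.3%) were above background in at least 1 group, 211 were so in control and 22 lay below it in every group. None reached the array ceiling of 19.93 on any array. Among the 2433 rows without a symbol that were above background and under the control limit, the chosen rows made up 9.49%. The same numeric limits took 124 of 4303 rows with a symbol that were above background (2.88%). Over all rows under the control limit the shares were 0.593% without a symbol and 0.565% with one. Of the 2224 brighter rows without a symbol, which the control limit left out, 659 (29.6%) had a range of 1 or more.

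T100 was the group with the highest mean for 127 of the 253 probe sets, control for 83, T50 for 27 and T10 for 16. The lowest mean fell in T10 for 90, in T100 for 57, in T50 for 54 and in control for 52. At T10, 76 probe sets were lower than control by 1 or more and 10 were higher by that much. At T50 the counts were 79 lower and 39 higher, and at T100 they were 70 lower and 107 higher. The median difference from control was -0.56 at T10, -0.33 at T50 and 0.55 at T100. Without the 26 probe sets described below that follow TC0100000133.rn.1, it was -0.39, -0.09 and 0.3. In these cultures fewer cells that make a transcript and less of it per cell cannot be told apart.

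Sorted by the sign of the difference from control at T10, T50 and T100, the rows fell mainly into 4 patterns. The largest, lower at all 3 doses, held 83 probe sets (32.8%). Another 52 (20.6%) were higher at all 3 doses, 48 (19%) were lower at T10 and T50 and higher at T100, and 45 (17.8%) were lower at T10 and higher at T50 and T100. Among all rows without a symbol under the control limit, these 4 patterns held 22.5%, 25.9%, 6.76% and 6.6%, in the same order. The 3 differences share their control arrays, and nothing is read from the gaps because the group means chose the rows. The other 4 patterns held 10, 5, 5 and 5 rows. Signs close to 0 are not firm: 173 of the 253 rows kept their pattern with each of the 12 arrays left out in turn, among them 77 of the 83 that were lower throughout and 28 of the 52 that were higher throughout. The 132 rows with a symbol that met the same limits were lower at all 3 doses in 25.8% and higher at all 3 in 23.5% of cases. Of them, 12.9% were lower at T10 and T50 and higher at T100, and 17.4% lower at T10 and higher at T50 and T100. A difference of sign at T50 alone was more common there: 9.09% were higher at T50 only and 7.58% lower at T50 only, against 1.98% each without a symbol.

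**Figure D1:**
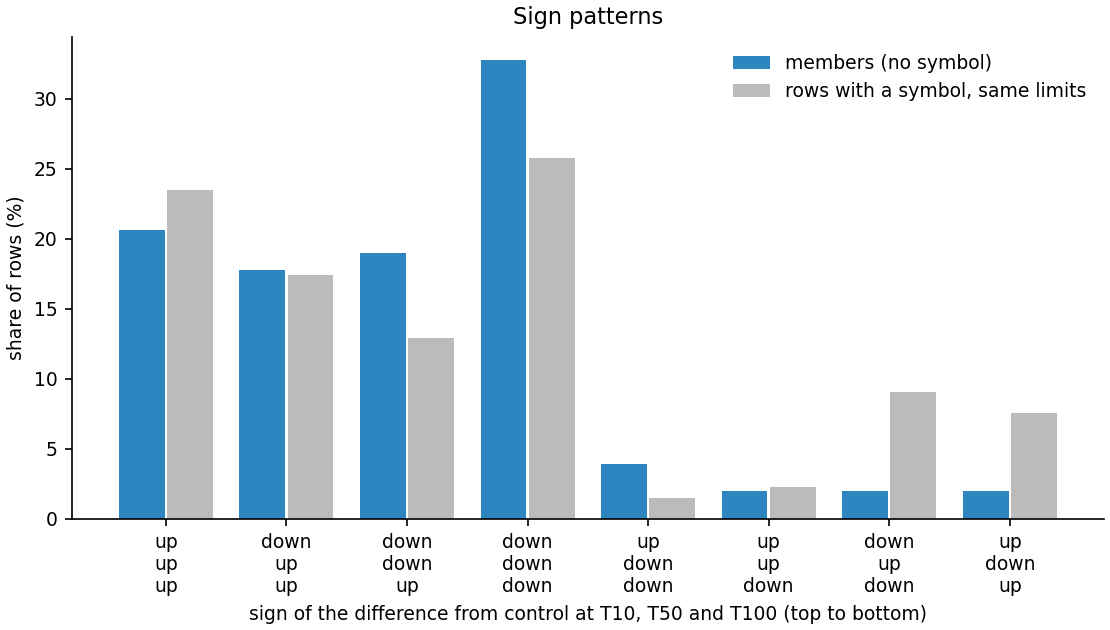
Share of rows (percent, linear axis from 0) with each of the 8 combinations of sign of the difference from control, for the 253 probe sets without a symbol (blue) and the 132 rows with a symbol under the same limits (grey). The tallest blue bar is the pattern lower at T10, T50 and T100, at 32.8%.

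The largest differences belonged to a group of probe sets that were strongly lower at T10 and T50 and strongly higher at T100. The most variable row was TC0100000133.rn.1, with a range of 9.71. Its values were 10.13, 10.45 and 9.86 on the control arrays, 4.71, 4.56 and 4.55 on the T10 arrays, 4.91, 4.63 and 4.87 on the T50 arrays, and 14.5, 13.76 and 14.71 on the T100 arrays. The T10 and T50 arrays lay below the level of negative controls, the T100 arrays lay above all controls, and no exposed group overlapped with control. Because T10 and T50 were under background, the fold there is a bound set at the background level: at least 20.8-fold lower at T10 and at least 24.7-fold lower at T50, whereas T100 was 18-fold higher than control. TC0500001981.rn.1, TC0800000758.rn.1 and TC2000000286.rn.1 held exactly the same 12 values as this row, on chromosomes 5, 8 and 20 by their names.

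In all, 26 of the 253 probe sets followed this row with a Pearson r of 0.95 or more over the 12 arrays. This grouping was chosen after the values had been seen. The arrays share 4 group levels, so such an r mainly records the order and spacing of those levels. The 26 rows held 22 distinct profiles and lay on 13 chromosomes, with 6 on chromosome 5, 3 each on chromosomes 14 and 20, and 1 or 2 on each of the others. Each of the 26 had its 3 T10 arrays and its 3 T50 arrays below the 3 control arrays and its 3 T100 arrays above them. Over all rows the shares were 7.66% below at T10, 7.12% below at T50 and 7.2% above at T100, and nothing is read from the gap because these values chose and grouped the rows. Their difference from control ran from -5.54 to -0.69 at T10 (median -4.69), from -5.35 to -0.69 at T50 (median -4.58) and from 1.31 to 4.17 at T100 (median 3.83). All 26 were above background in control and in T100, and 4 were in T10 and 4 in T50. In control, however, TC1000003841.rn.1 (5.43) and TC0200000003.rn.1 (5.54) stood close to the background level of 5.42. The size of the falls in these rows, among them the -0.69 at both doses, is therefore not measured. The median level over the 26 rows was 9.49 in control, 4.61 at T10, 4.72 at T50 and 13.3 at T100.

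**Figure D2:**
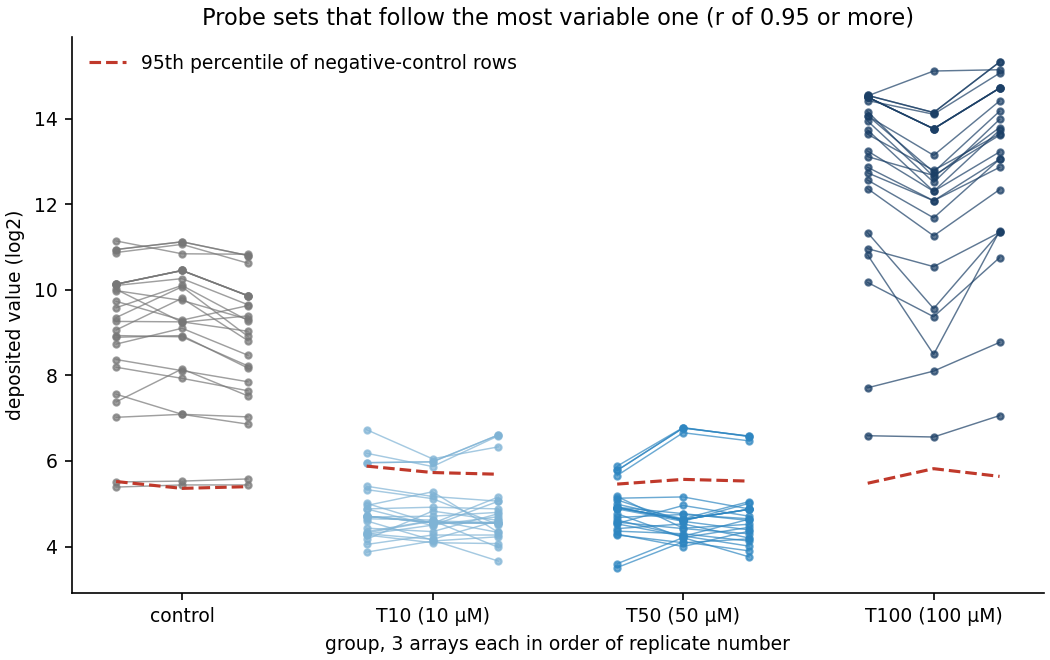
Deposited log2 values of the 26 probe sets that follow the most variable one, with 1 line per probe set and group and 1 point per array; dashed lines mark the 95th percentile of negative-control rows on each array. The T10 and T50 points lie mostly under the dashed line, while the median over the rows is 13.3 in T100 and 9.49 in control.

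The weakest of the 26 was TC1000003841.rn.1, with T10 and T50 under background, which averaged 5.43 in control, 4.73 at T10, 4.74 at T50 and 6.74 at T100. Among the brightest was TC2000000287.rn.1, at 11.14, 10.84 and 10.83 in control, 6.73, 6.05 and 6.33 in T10, 5.88, 6.78 and 6.57 in T50, and 14.53, 15.11 and 15.14 in T100. This row stayed above background in all 4 groups, so its folds are measured: 23.7-fold lower at T10, 23.1-fold lower at T50 and 15.9-fold higher at T100. TC2000000285.rn.1 had 1 T100 array that stood apart, with 10.81, 8.49 and 11.37 in T100 against 7.38, 8.15 and 7.52 in control. Its lowest T100 array was still above its highest control array.

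Several of these probe sets stood next to each other in the array's numbering. Row numbers on a chromosome follow gene order closely. In 92.1% of 21482 adjacent pairs of named rows the gene with the higher number starts further along in the GRCr8 gene table. Of 16764 adjacent pairs with a known strand, 94.9% shared it. A neighbour by row number is therefore mostly one on the same strand, and genes on the opposite strand can be missed. Among the 253 rows, 12 runs of 2 or 3 had numbers at most 2 apart and took in 26 rows. In 7 of the runs every row belonged to the group that follows TC0100000133.rn.1, which placed 16 of that group's 26 rows in runs. The run of TC0500003997.rn.1, TC0500003998.rn.1 and TC0500003999.rn.1 averaged 9.18, 8.77 and 9.22 in control, 4.49, 4.31 and 4.36 in T10, 4.47, 4.29 and 4.38 in T50, and 12.92, 12.43 and 13.25 in T100. The T10 and T50 means of these 3 neighbouring rows lay under background. The 3 rows were close to each other in control and again, at a higher level, in T100. TC0500002500.rn.1 and TC0500002501.rn.1 formed another run on chromosome 5. The first of this pair was 3.71 higher at T100 and 4.77 lower at T10 than in control, and the second was 4.01 higher at T100 and, with T10 under background, at least 14.8-fold lower at T10.

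The nearest named genes by row number, on either side of the most variable rows, did not share their pattern. Next to TC0100000133.rn.1 stood Cited2, a transcriptional co-regulator, with a range of 0.24 over the 4 group means, and Txlnb, with 0.06. The copy on chromosome 20 stood between Pi16 and Fgd2, each with a range of 0.04. The copy on chromosome 5 stood between Uts2 and Camta1, with 0.05 and 0.08, and the copy on chromosome 8 between Isl2 and Rcn2, with 0.06 and 0.1. Of these 8 named rows only Rcn2 was above background in any group, which limits what the rest can show. The rows beside TC0500002501.rn.1 were Zfp292 (0.25) and Mob3b (0.17), and those beside TC0700001232.rn.1 were Efr3a (0.64) and Tg (0.06). TC0700001232.rn.1 itself had a range of 9.1, with a mean of 10 in control, 4.99 at T10, 4.77 at T50 and 13.87 at T100. Pdpn, the gene of the membrane glycoprotein podoplanin, lay 7 to 9 row numbers from the 3-row run on chromosome 5 and had a range of 1.09, yet it was 0.75 higher than control at T10, where the run was lower.

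Of the 152 rows with exactly 1 symbol and a range of 1 or more, the one most like each of the 6 most variable probe sets was Luzp4, with r between 0.972 and 0.976 over the 12 arrays. Luzp4 had 5.09, 5.33 and 5.26 in control, 4.22, 4.02 and 4.05 in T10, 4.35, 4.32 and 4.38 in T50, and 5.84, 5.4 and 5.82 in T100. Its range was 1.59, and its mean was above background in T100 only (5.69 against a level of 5.65), so the order of its other groups is not measured. Over all rows, 28 had r of 0.95 or more with TC0100000133.rn.1, and 2 of them carried a symbol.

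**Figure D3:**
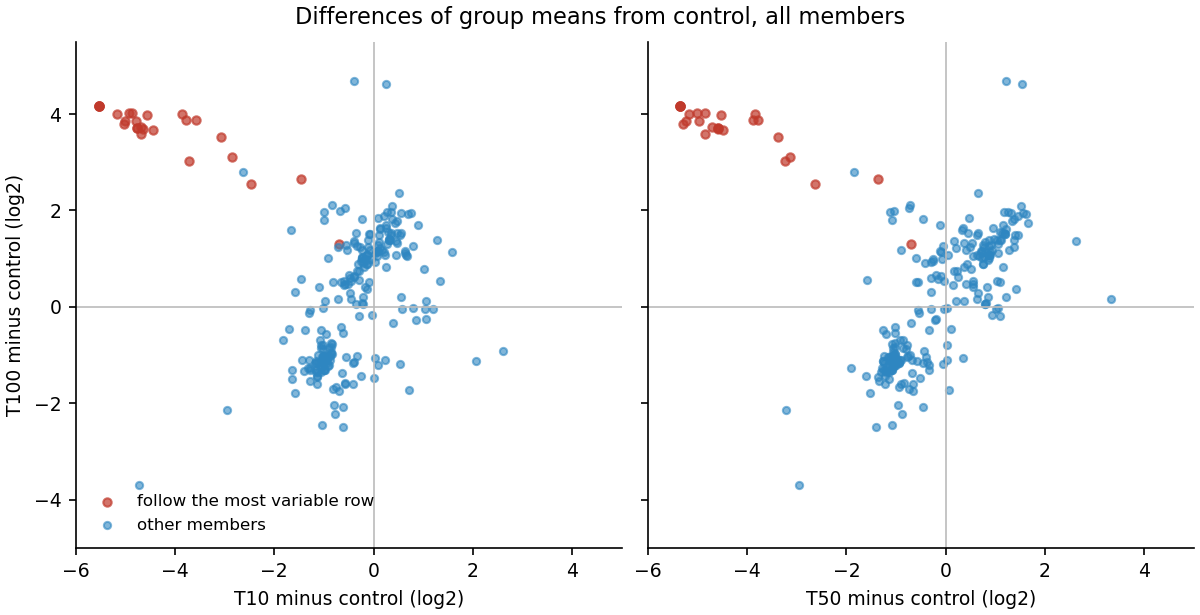
Difference from control (log2) at T100 on the vertical axis against T10 (left) and T50 (right) on the horizontal axis, 1 point per probe set; red points are the 26 rows that follow the most variable one, blue points the rest. The red points reach -5.54 at T10 with 4.17 at T100, and the 2 blue points near the top, at 4.68 and 4.62, are close to 0 at T10. The 3 comparisons share their control arrays.

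When all 253 rows were joined by the correlation of their 12 values (average linkage, joined up to 1 - r of 0.4), 38 sets formed, of which 12 held 4 or more rows and together 212 rows. The grouping was again made on the same values and is a description. The largest set held 54 rows on 18 chromosomes and was higher at the upper doses. Its median difference from control was 0.11 at T10, 0.94 at T50 and 1.33 at T100. All 54 had their T100 arrays above all control arrays, 49 had their T50 arrays above them, and 9 of the 54 did not overlap with control at T10. Over all rows 7.2% lay above at T100 and 7.12% at T50, and at T10 6.65% lay above and 7.66% below. The set was built on these same values.

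Members of that set included 3 of the 4 non-overlapping probe sets that exceeded control most at T50. TC0800000057.rn.1 had 6.89, 7.49 and 8 in control, 7.83, 8.58 and 8.05 in T10, 9.29, 8.76 and 9.19 in T50, and 9.34, 9.54 and 9.28 in T100. TC0100002234.rn.1 had 6.55, 7.35 and 7.85 in control, 7.57, 8.49 and 7.93 in T10, 8.42, 8.46 and 9.52 in T50, and 9.04, 9.36 and 9.16 in T100. In both rows T10 overlapped with control and the T50 and T100 arrays were all above it, by 1.62 and 1.93 on average in TC0800000057.rn.1 and by 1.55 and 1.94 in TC0100002234.rn.1. TC0X00001285.rn.1 was of the same kind, with means of 8.01 ± 0.52 in control, 8.44 ± 0.51 at T10, 9.66 ± 0.75 at T50 and 9.75 ± 0.06 at T100 (SD, n = 3 each). On its T50 arrays the values spread from 9.06 to 10.49, a spread close to its difference from control of 1.65.

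A few rows of the same set were already above control at T10. TC1500000974.rn.1 had 8.49, 8.44 and 8.9 in control, 9.04, 9.28 and 9.39 in T10, 9.33, 9.13 and 9.52 in T50, and 9.77, 9.91 and 9.52 in T100. Each exposed group lay wholly above control, by 0.63 at T10, 0.72 at T50 and 1.12 at T100. TC1600002099.rn.1 was likewise above control at every dose, by 0.68, 0.68 and 1.05, and missed the limit of 1 in 2 of the 12 leave-outs, which took it in 10 times. The named rows that most often resembled the set best, looked up after the values had been seen, were Frmd4b and Piwil2 with 12 members each and Col12a1 with 7; Piwil2 was under background in all 4 groups. Col12a1 encodes a chain of collagen XII, and its own means were 7.22 ± 0.16 in control, 7.89 ± 0.57 at T10, 8.4 ± 0.35 at T50 and 8.91 ± 0.23 at T100.

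The next set held 53 rows on 17 chromosomes, with a median control level of 10.23, and was lower at every dose. The median difference was -1.03 at T10, -1.09 at T50 and -1.16 at T100, so the size hardly moved with dose. All 53 had their T10 arrays and their T50 arrays below all control arrays, and 52 had their T100 arrays below them. The shares over all rows were 7.66% at T10, 7.12% at T50 and 8.21% at T100, and this set too was built on the values it describes. All 12 leave-outs took in 29 of the 53. Irak3, a kinase-family inhibitor of Toll-like receptor signalling, was the named row most like 23 of them, and its means were 9.04 ± 0.06 in control, 8.16 ± 0.07 at T10, 8.26 ± 0.31 at T50 and 8.01 ± 0.25 at T100.

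TC0100005017.rn.1 had the largest range of that set, 3.22. It had 7.63, 7.85 and 7.32 in control, 4.51, 4.88 and 4.55 in T10, 4.51, 4.25 and 4.37 in T50, and 5.61, 5.41 and 5.4 in T100. All exposed arrays were below all controls. With T10 and T50 under background, it was at least 3.56-fold lower at T10 and at least 4.23-fold lower at T50. The T100 mean of 5.47 was under background as well, with 1 of its 3 arrays above that array's own level, so the order of the exposed groups is not measured. The named row most like it was Tex101, a gene known from the testis, with r of 0.971. Tex101 stood 50 row numbers away on the same chromosome and had 9.82, 10.23 and 9.84 in control, 6.23, 6.53 and 6.01 in T10, 5.4, 5.52 and 5.7 in T50, and 8.12, 7.99 and 7.81 in T100. Both rows were highest in control, with no exposed array reaching the controls. Its nearest named row, Cyp2s1, did not follow it (r of -0.03).

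**Figure D4:**
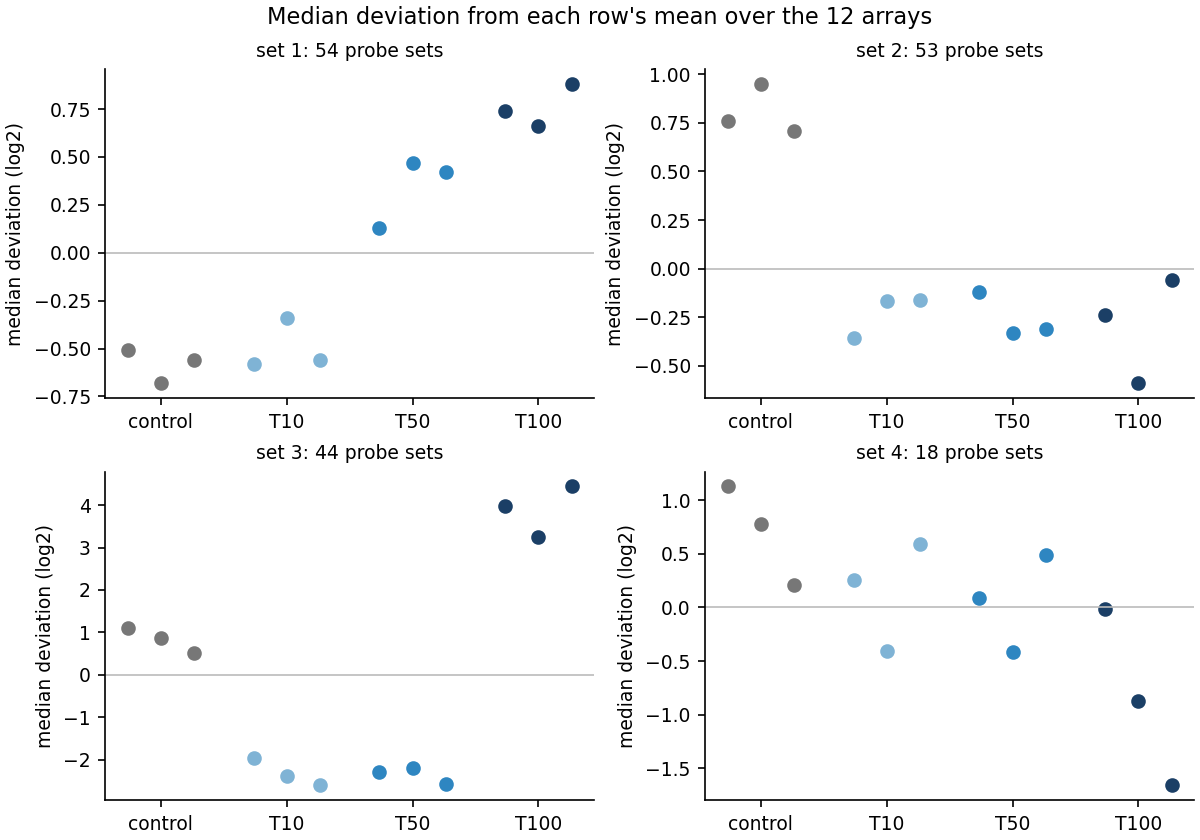
Median over the rows of a set of the deviation from each row's own mean over the 12 arrays (log2), 1 point per array, for the 4 largest correlated sets; vertical axes differ between panels. Set 1 is highest in T100, set 2 is highest in control, set 3 joins the rows that follow TC0100000133.rn.1 with others, and in set 4 the T100 arrays spread from -0.01 to -1.66.

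Another set, of 44 rows, contained the probe sets that follow TC0100000133.rn.1, and the next largest held 18 rows on 12 chromosomes. These 18 had median differences from control of -0.6 at T10, -0.71 at T50 and -1.6 at T100, and 13 of the 18 had all T100 arrays below control (8.21% of all rows did). For 17 of the 18 the most similar named row was Rn5s, the gene of the 5S ribosomal RNA, with r between 0.84 and 0.98. Rn5s had 10.78, 10.95 and 10.52 in control, 10.52, 10.04 and 10.8 in T10, 10.39, 9.63 and 10.71 in T50, and 10.42, 9.48 and 8.73 in T100. The set varied within groups along with it: its median deviation was -0.01, -0.87 and -1.66 on T100 replicates 1, 2 and 3, and 1.13, 0.78 and 0.21 on the controls.

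TC0800000840.rn.1, the row of this set furthest below control among those without overlap, had 10.35, 9.76 and 7.78 in T100 against 11.29, 11.74 and 11.51 in control. All T100 arrays were below control, but replicate 3 lay almost 2 units under replicate 2. TC0100003690.rn.1 had 11.18, 9.25 and 9.16 in T100 against 12.43, 12 and 11.39 in control, and TC0900002009.rn.1 had 9.97, 8.35 and 8.07 in T100 against 11.29, 11.08 and 10.13 in control. In both rows T100 replicate 1 came close to the lowest control array. The 4 non-overlapping rows furthest below control at T100 were these 3 rows and TC0100005017.rn.1.

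The largest excess over control at T100 was in TC0200000657.rn.1 and TC1100001917.rn.1. TC0200000657.rn.1 had 7.65, 9.24 and 7.97 in control, 7.38, 7.2 and 9.13 in T10, 12.44, 7.51 and 8.57 in T50, and 12.57, 13.61 and 12.72 in T100. T100 was 25.6-fold higher than control and clear of it, whereas T50 rested on replicate 1, which alone reached the T100 level. TC1100001917.rn.1 had 6.87, 8.1 and 6.51 in control, 6.63, 7.27 and 8.32 in T10, 9.27, 8.18 and 8.63 in T50, and 10.61, 12.35 and 12.38 in T100. Its T50 and T100 arrays were all above control, and T100 was 24.5-fold higher. The pseudogene row Akr1b8-ps2 was the named row most like TC0200000657.rn.1 (r of 0.984), and at T50 it too had 1 array apart, with 11.5 on replicate 1 against 6.89 and 8.12 on the others.

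Few rows were above control at T10. TC0100005417.rn.1 had 5.22, 6.6 and 6.91 in T10 against 4.39, 4.54 and 5.03 in control, with no overlap. Control and T50 were under background, so T10 was at least 1.77-fold and T100 at least 1.3-fold higher than control. TC2000000261.rn.1 had 8.48, 7.47 and 7.98 in T10 against 6.95, 6.96 and 6.85 in control, a 2.08-fold difference. Its T50 and T100 arrays overlapped with control. TC0800000472.rn.1 was above control at T50 alone, with 9.1, 8.52 and 8.54 in T50 against 7.62, 7.62 and 7.65 in control, and its T10 and T100 arrays were slightly below control.

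Not every chosen row differed between groups beyond the spread of its arrays. For 38 of the 253 the exposed arrays overlapped with control at every dose (69.2% of all rows did), and for 97 they were apart from control at all 3 doses (3.12% of all rows). Nothing is read from these gaps, since the same values chose the rows. The standard deviation pooled over the groups had a median of 0.36 over the 253 rows and 0.23 over all rows without a symbol that were above background and under the control limit. In 132 rows (52.2%) the arrays of at least 1 group differed by 1 or more among themselves, against 529 of the 2433 background-passing rows (21.7%). The choice by range of group means takes in rows with a wide spread as well.

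In 27 rows 1 array lay 2 or more from both others of its group while those were within 1 of each other. The most extreme was TC0X00000842.rn.1, at 15.45 on T10 replicate 3 against 3.07 and 4.03 on the other T10 arrays and 4.39, 6.52 and 3.84 in control. That value is the highest of any of the 253 rows on any array. TC0100006120.rn.1 had 8.68, 13.41 and 8.42 in T10 against 8, 8.5 and 7.82 in control, and its mean T10 difference of 2.07 came from replicate 2. TC0600000693.rn.1 had 3.21, 4.03 and 3.36 in T10 against 13.76, 4.18 and 6.84 in control, so its difference of -4.73 was carried mostly by control replicate 1, and T10 was under background. TC0700002126.rn.1 is not among the 27, since no pair of its T50 arrays was close: they had 3.65, 6.29 and 11.93 against 5.11, 3.07 and 3.71 in control, and the groups overlapped. Lone arrays were found in every group, from 0 rows on control replicate 3 to 5 rows each on control replicate 1 and T10 replicate 1.

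**Figure D5:**
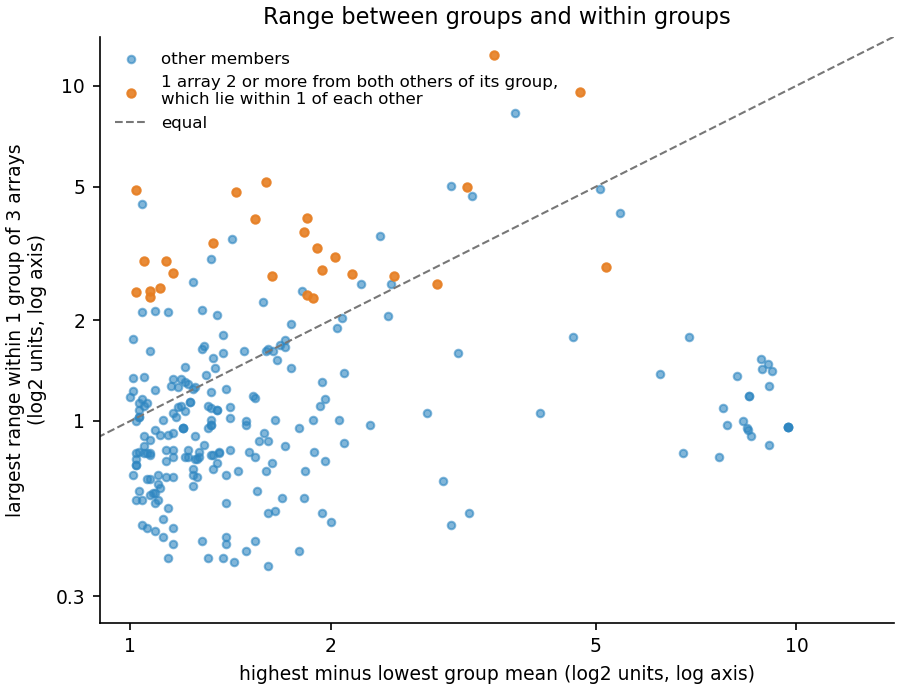
Largest range of the 3 arrays within a group against the range of the 4 group means (both log2 units on log axes), 1 point per probe set; orange marks the 27 rows with a lone array and the dashed line marks equal ranges. Points above the line, TC0X00000842.rn.1 highest among them, varied more within a group than between group means.

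Several of the widest rows of the rarer sign patterns were of this wide-spread kind. Not all rows of these patterns were: TC0800000472.rn.1, described above, had a pooled SD of 0.19. TC1900000166.rn.1, higher at T10 and T100 and lower at T50, had 14.13, 13.07 and 12 on its T100 arrays and overlapped with control at every dose. TC0800001031.rn.1 had 9.48, 9.1 and 8.99 in T10 against 9.8, 11.28 and 11.6 in control, with no overlap, yet its T50 arrays ran from 8.79 to 12.45. TC1800001615.rn.1 had 8.22, 8.28 and 6.68 in T100 against 8.47, 9.33 and 10.52 in control, just clear of each other. TC1600000903.rn.1 was under background in every group. Among the rows higher at all 3 doses, TC0900002115.rn.1 had a similar spread, with 6.43, 5.23 and 8.8 in T100 against 4.34, 4.21 and 4.79 in control. Its control was under background, so T100 was at least 2.63-fold higher.

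By the chromosome in their names, the 253 rows spread over all autosomes and X, from 4 rows on chromosomes 12 and 15 to 32 on chromosome 1, with 1 unplaced. The share of rows under the control limit that were chosen ran from 0.241% on chromosome 15 to 1.05% on chromosome 9, around 0.593% overall. The mitochondrial chromosome stood higher on a small base, with 4 of 17 rows (23.5%). Of these, TC0M00000018.rn.1 had 6.98, 8.14 and 6.59 in T100 against 5.74, 6.13 and 5.99 in control, with no overlap. TC0M00000038.rn.1 had 6.35, 7.85 and 5.69 in T100 against 5.3, 5.42 and 5.67 in control, barely apart. The other 2, TC0M00000001.rn.1 and TC0M00000033.rn.1, overlapped with control at every dose.

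Across the set, 6 groups of rows held identical values on all 12 arrays, covering 15 rows, so the 253 rows held 244 distinct profiles. Besides the 4 copies of the most variable row, 3 rows on chromosome 19, TC1900001047.rn.1, TC1900001258.rn.1 and TC1900001259.rn.1, were identical. They had 10.4, 10.22 and 9.89 in T100 against 9.11, 9.56 and 8.62 in control, with no overlap. Identical rows are 1 measurement, and a count of rows counts them more than once.

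Near a named gene that itself varied, a few rows followed it. A nearest named row with a range of 1 or more was found for 9 of 252 rows (3.57%). Among above-background rows without a symbol under the control limit it was found for 37 of 2423 (1.53%), with no test of that difference. The 9 rows are not independent. The 3-row run on chromosome 5 shared Pdpn, which it did not follow (r of 0.33 to 0.35), and TC0100000012.rn.1 and TC0100000013.rn.1 shared Ulbp1. In 8 of 492 pairs of a chosen row and its named neighbour the r over the 12 arrays was 0.8 or more (1.63%). Among pairs of the above-background rows it was so in 38 of 4772 (0.796%). Nothing is read from this gap, because the rows were chosen for wide differences between groups. Among the 8 pairs, the neighbours Rbms3, Srgap3, Rif1 and Slc3a2 themselves varied little, with ranges of 0.76, 0.53, 0.25 and 0.28. Rbms3 and Srgap3 were under background in every group. TC0100000013.rn.1 and TC0100000012.rn.1 stood directly after Ulbp1, whose human counterpart is a stress-induced ligand of the NKG2D receptor of natural killer cells, and had r of 0.96 and 0.93 with it. TC0100000012.rn.1 was under background in every group. TC0100000013.rn.1 had 4.01, 4.19 and 4.24 in T10 against 5.94, 5.85 and 6.11 in control, with no overlap. All 3 of its exposed means were under background, so T10 was at least 1.15-fold and T50 at least 1.36-fold lower than control, and the order of the doses is not measured.

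TC1100000454.rn.1 stood directly after Col8a1, which encodes a collagen VIII chain, and followed it with r of 0.91. It had 6.1, 6.18 and 5.9 in T10 and 6.49, 6.48 and 6.21 in T100 against 7.54, 7.47 and 8.11 in control. T10 and T100 were wholly below control and T50 overlapped with it; Col8a1 differed by -1.91 at T10, -0.72 at T50 and -1.43 at T100. TC0300000762.rn.1 came next after Dhrs9, a short-chain dehydrogenase that acts on retinoids, with r of 0.83. It had 12.33, 11.66 and 11.91 in T100 against 10.88, 10.47 and 10.59 in control, 1.32 higher, and Dhrs9 was 0.88 higher. These rows are not given their neighbours' names, and whether any of them belongs to the neighbour's transcript was not tested.

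A fit across all 68842 non-control rows (limma, adjusted p under 0.05 by Benjamini-Hochberg) called 47 of the 253 at T10, where 0.597% of all rows were called. All 47 were lower than control (0.536% of all rows) and 0 were higher (0.061%). At T50 it called 70, where 0.705% of all rows were called: 20 higher (0.234%) and 50 lower (0.471%). At T100 it called 103, where 1.24% of all rows were called: 70 higher (0.44%) and 33 lower (0.805%). As the rows were chosen by the same differences, nothing is read from the gap to those shares. The 26 rows that follow TC0100000133.rn.1, some of them identical, made up 24 calls at T10, 24 at T50 and 25 at T100. For 143 of the 253 no dose was called. At an unadjusted p under 0.05 the counts among the 253 were 115 at T10 (10.4% of all rows passed), 157 at T50 (8.95%) and 192 at T100 (9.94%). Calls at adjusted p under 0.05 fell without some single arrays, among the 253 and over all rows. Without control replicate 2 the calls among the 253 were 31, 41 and 59 at the 3 doses. Over all rows they went from 411, 485 and 857 to 104, 152 and 253. Without T10 replicate 2 there were 31 at T10 (170 over all rows). Without T50 replicate 2 or 3 there were 40 or 45 at T50 (155 or 267 over all rows). At T10, 12 rows had all 3 arrays above control (6.65% of all rows did) and 107 had all 3 below (7.66% of all rows). At T50 the counts were 68 above (7.12%) and 98 below (7.12%), and at T100 they were 119 above (7.2%) and 71 below (8.21%).

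Leaving out arrays showed how many rows still met the limits without any single array. Meeting them does not show that a row's pattern is free of single arrays, because another pair of group means can reach the limit. TC0X00000842.rn.1, TC0100006120.rn.1 and TC0600000693.rn.1, each with a lone array, passed all 12. Of the 253, 169 met the limits in all 12 leave-outs of a single array, 41 in 11, 26 in 10, 14 in 9 and 3 in 8. When the rule was applied to 2 arrays per group, it took 305, 303 and 337 rows with replicate 1, 2 or 3 held out. In the held-out arrays, the pair of groups that was highest and lowest in the chosen arrays differed in the same direction for 85.9%, 85.8% and 83.1% of those rows, and by 1 or more for 44.3%, 46.9% and 38.3%. The median difference of that pair was 0.9, 0.92 and 0.72 in the held-out arrays, against 1.36, 1.37 and 1.33 in the arrays that chose them. The 26 rows that follow TC0100000133.rn.1 met the limits in all 12 leave-outs.

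At the edge of the rule, the rows just inside were TC1400001307.rn.1, TC1300001549.rn.1 and TC0200000662.rn.1, with ranges of 1, 1.01 and 1.01. Just outside were TC1600001958.rn.1, TC1500001420.rn.1 and TC0100007601.rn.1, with ranges of 0.998, 0.998 and 0.994. The brightest control mean inside was 11.94, in TC0100003690.rn.1, and the nearest row left out by that limit, TC1700001133.rn.1, had 12.03. Rows on either side of these limits differ by less than the spread of their arrays.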

How the data were processed

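The deposited table gives 1 value per probe set and array. The values, deposited by the authors, are read as log2, a base inferred from their span of 2.87 to 19.93. Background correction, summarization and normalization are not given in the sources used here. Labels gave each array its group, and rows with the array's control names were left out. The platform annotation gave 23446 rows exactly 1 symbol and 505 several. No column of another sample was present.

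limma 3.58.1 in R 4.3.3 (lmFit, eBayes, 4 group means, prior degrees of freedom 1.73) was fitted to 68842 rows with two-sided tests. On simulated data for T50 against control over 68842 rows it recovered 20.9% of changes of 0.5, 74.6% of changes of 1 and 93.9% of changes of 2 (log2), with 10 false calls. The simulation drew independent normal noise and changed T50 alone, in 67, 67 and 66 above-background rows. It held no shift shared by an array and no correlated or identical rows, so the rates need not hold for the real fit. Small changes were recovered least often.

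The probe sets and marker lists were chosen with earlier results of these data known. Named rows follow a rule: the 4 largest non-overlapping, above-background rises and falls per dose, the 2 widest ranges per sign pattern, 3 rows on either side of the range limit, the 3 longest runs, and the likeness and neighbours of the 6 widest rows. The rows TC1000003841.rn.1, TC0200000003.rn.1 and TC1700001133.rn.1, those on the mitochondrial chromosome and those identical on chromosome 19 were named after their values were seen. So were the rows beside Ulbp1, Col8a1 and Dhrs9, the neighbours Rbms3, Srgap3, Rif1 and Slc3a2, and the correlated sets with their likest genes. Replicate numbers are shared between groups. Deviations of same-numbered arrays correlated from -0.375 to 0.236, and those of differently numbered arrays from -0.341 to 0.281. With 3 arrays per group this cannot decide whether the numbers mark a shared culture or batch. The main fit treats the arrays as unpaired.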

Additional observations from a re-analysis of the deposited data

How the results depend on the processing

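A range limit of 1.5 took 102 rows and a limit of 2 took 54, in place of 253. Quantile normalization, group medians, other control limits and the remaining alternatives stayed within 1.5 times of 253. Counts called by limma moved more. Over rows above background only, they were 82 at T10 and 118 at T50. That fit called 1238 and 1183 of all its rows, against 411 and 485 in the main fit. With each array's 95th percentile as a covariate the calls among the 253 were 23 at T10 and 31 at T50. Over all rows they were 37 and 87. The cause of either change was not tested. A replicate block, though it is not known whether the numbers pair the arrays, called 46 at T50, 33 at T10 and 70 at T100. Over all rows it called 214, 137 and 348. Leaving out arrays gave 254 to 337 rows by the rule and 31 to 59 calls at T10, 40 to 79 at T50 and 59 to 107 at T100. Without control replicate 2 there were 31, 41 and 59 calls at T10, T50 and T100 (104, 152 and 253 over all rows). Without T10 replicate 2 there were 31 at T10 (170 over all rows). Without T50 replicate 2 or 3 there were 40 or 45 at T50 (155 or 267 over all rows). Counting identical rows once, or leaving out the 26 rows like the most variable one, was added after seeing the data and stayed within 1.5 times of 253. Of 912 recomputed differences of named rows, 909 moved by less than 1 SD and 0 changed sign. Values near the negative-control level carry no order, which limits the 22 rows under it.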
